A study of Peromyscus californicus with 17 samples.

Results

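The 40 genes described here belong to the cell division cycle, which lung shares with every dividing tissue: they encode the proliferation antigen Mki67, the replication licensing complex, the mitotic cyclins and kinases, the kinetochore, the spindle and the enzymes that end mitosis. They were chosen by symbol, as 40 of the 27786 genes in the table, and all 40 were found. RNA had been sequenced from the lungs of 17 male *Peromyscus californicus* (stock IS, the monogamous California mouse), 1 library per animal. The bonded group (B, n = 6) had lived with a female for about 4 months. The bond-disrupted group (BD, n = 6) had been paired for the same time, and its lungs were taken 7 days after the male was removed from its mate. The virgin group (V, n = 5) was never paired and was group-housed. All animals were tumor-free and 12 to 15 months old, and no drug or genetic change was used. In the labels, 1 number was shared by brothers in different groups (or by cousins, for V3 and another virgin animal). Library sizes, recovered from the values, ran from about 30788500 reads (B4) to 68232000 reads (B3).

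A cell that commits to divide loads the MCM helicase onto its origins with the help of Cdc6 and Cdt1, copies its DNA behind the sliding clamp Pcna, and enters mitosis when cyclins A2, B1 and B2 activate Cdk1. The kinetochore and its checkpoint (Ndc80, Nuf2, Bub1, Bub1b, Ttk) hold the chromosomes until Cdc20 and the anaphase promoting complex release them, and the passenger complex (Aurkb, Birc5, Cdca8) and kinesins complete division. Many of these genes are transcribed in waves timed to the phase in which they act, and Mki67 protein marks cells in cycle in tissue sections. The adult lung renews slowly, so these transcripts are known to be scarce in it.

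The deposited values of these genes could not be compared between animals as they stood. In each column the reads of a gene had been divided by the length of another gene, 1 row above it in the first column and 17 rows above it in the last. Mki67 was listed at 128 FPKM in V3, where its 598 reads had been divided by a length of 104 bases, and at 0.160 FPKM in BD1. Divided by its own length of 10871 bases, Mki67 had 1.23 FPKM in V3 and 0.446 FPKM in BD1. Top2a, the topoisomerase that untangles replicated chromosomes, was listed at 43.9 FPKM in V4 after division by 244 bases and had 1.97 FPKM with its own length of 5433 bases. Over the 40 genes the median SD of log2(FPKM + 0.1) across animals was 1.52 as listed, and over the 39 genes whose reads could be recovered in all animals it was 0.388 with their own lengths. All values below use each gene's own length unless they are said to be as deposited.

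**Figure D1:**
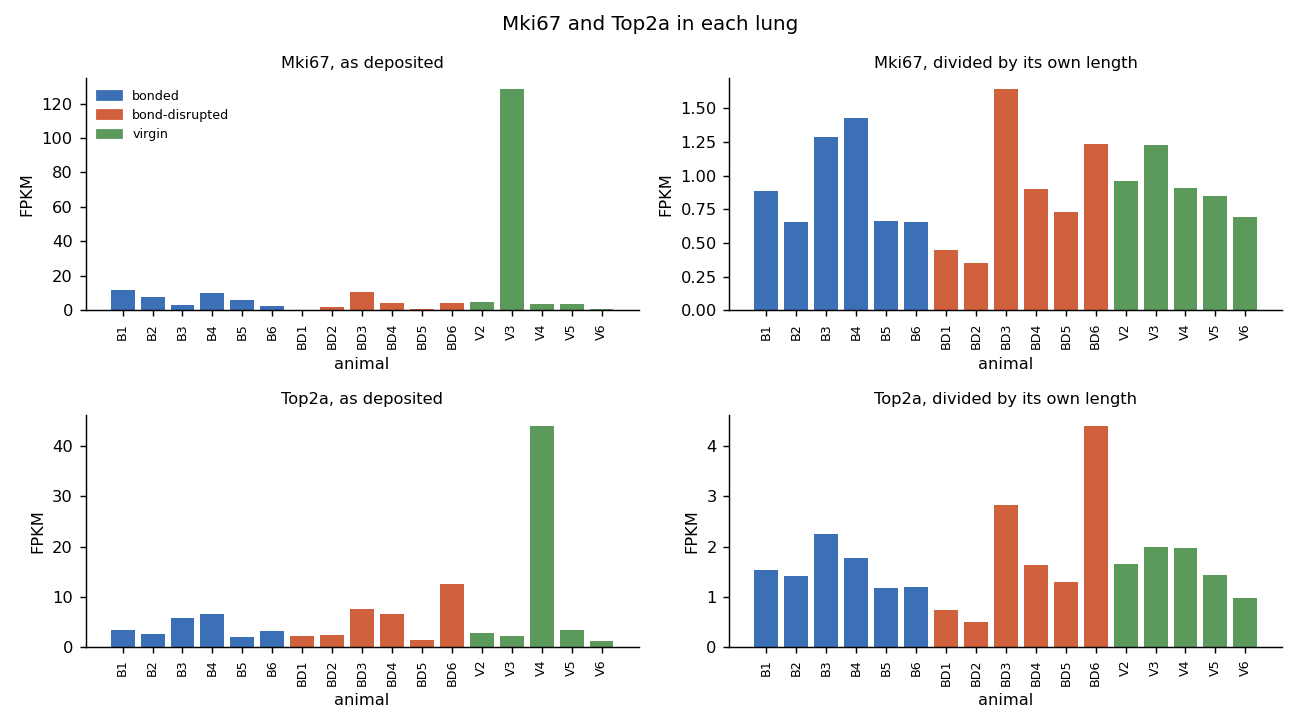
FPKM (y axis) of Mki67 and Top2a in each of the 17 lungs (x axis; 1 bar per animal, colored by group), as deposited on the left and divided by the gene's own length on the right. The bars of V3 for Mki67 (128 FPKM) and V4 for Top2a (43.9 FPKM) stand far above the rest as deposited and fall among the other animals, at 1.23 and 1.97 FPKM, with the gene's own length.

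The 39 recovered genes were expressed at low levels in lung. Their mean over the 17 animals ranged from 0.265 FPKM (Cdc6) to 40.2 FPKM (Pcna), with a median of 1.69 FPKM. In 17 of them every animal had at least 1 FPKM, in 5 (Bub1, Cenpf, Ttk, Melk and Cdc6) no animal reached 1 FPKM, and the fewest reads of any of them in any animal were 16. They varied more between animals than genes in general: the median SD was 0.388 on the log2(FPKM + 0.1) scale against 0.273 over the 16792 genes that averaged 0.1 FPKM or more, 34.8% of which had an SD above the median of the cell cycle genes. The SD was smallest in Mcm7 (0.12) and Pcna (0.16) and largest in Top2a (0.67) and Tyms (0.68). In bulk lung RNA, fewer dividing cells and less RNA in each of them cannot be told apart.

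Mki67, whose protein coats mitotic chromosomes, was taken as the reference for the others. Its level in B1 to B6 was 0.886, 0.656, 1.29, 1.43, 0.665 and 0.655 FPKM. In BD1 to BD6 it was 0.446, 0.355, 1.64, 0.901, 0.727 and 1.24 FPKM, and in V2 to V6 it was 0.960, 1.23, 0.906, 0.848 and 0.693 FPKM. The bond-disrupted group held both the lowest animal (BD2) and the highest (BD3), and the bonded and virgin animals lay between these. The group means were 0.929 ± 0.346 FPKM (SD, n = 6) in bonded, 0.885 ± 0.489 FPKM (SD, n = 6) in bond-disrupted and 0.927 ± 0.195 FPKM (SD, n = 5) in virgin animals. These values rest on 170 to 954 reads per animal.

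Top2a ran much like Mki67 over the animals. It had 1.54, 1.41, 2.26, 1.78, 1.17 and 1.19 FPKM in B1 to B6. It had 0.738, 0.502, 2.83, 1.64, 1.29 and 4.40 FPKM in BD1 to BD6, and 1.66, 2.00, 1.97, 1.44 and 0.968 FPKM in V2 to V6. BD2 was again the lowest animal, and BD6 and BD3 were the highest, so that the bond-disrupted group spanned the whole range and overlapped both others. Its means were 1.56 ± 0.413 FPKM (SD, n = 6) in bonded, 1.90 ± 1.47 FPKM (SD, n = 6) in bond-disrupted and 1.61 ± 0.428 FPKM (SD, n = 5) in virgin animals.

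Among the genes of replication licensing and DNA synthesis, Pcna and Mcm7 were by far the most abundant members and the steadiest. Pcna, the clamp that also serves DNA repair, ranged from 36.0 to 43.2 FPKM (median 39.1 FPKM) in bonded, from 33.7 to 47.3 FPKM (median 42.4 FPKM) in bond-disrupted and from 33.7 to 43.5 FPKM (median 42.1 FPKM) in virgin animals. Mcm7, a subunit of the helicase, spanned 14.9 to 20.2 FPKM over all animals, a 1.35-fold range. The other recovered helicase subunits Mcm2, Mcm4, Mcm5 and Mcm6 had means of 3.88, 4.45, 6.33 and 6.70 FPKM, and each spanned about 1.9-fold to 2.2-fold. Cdc6, which loads the helicase, was the scarcest of the 39 genes, with 0.159 to 0.580 FPKM on 34 to 98 reads. Its highest animal was B4.

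The enzymes that make deoxynucleotides were more variable. Tyms, thymidylate synthase, had 2.25, 2.18, 2.38, 2.24, 1.91 and 1.61 FPKM in B1 to B6, 2.37, 0.490, 4.56, 1.23, 2.00 and 4.13 FPKM in BD1 to BD6, and 2.10, 1.31, 2.29, 1.40 and 1.121 FPKM in V2 to V6. It was lowest in BD2 and highest in BD3, a 9.30-fold range and the widest of the 39 genes, with 30 reads in BD2. Rrm2, the small subunit of ribonucleotide reductase, ranged from 0.516 FPKM in BD2 to 1.57 FPKM in BD3. Cdt1, the licensing factor that cells destroy once replication starts, went the other way in BD2, which was its highest animal (3.20 FPKM), and it was lowest in V2 (1.08 FPKM).

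Mcm3, a further helicase subunit, was the 1 member left out of the fits, because neither its own length nor the lengths used in B1 to B4 could be settled. Its RPM (reads scaled to library size), which needs no length of its own, could be read in 13 animals. It was 9.78 RPM in B5 and 12.3 RPM in B6, 7.54 to 19.97 RPM in the bond-disrupted animals and 12.5 to 16.6 RPM in the virgin animals. BD2 was the lowest and BD3 the highest here too. As deposited, Mcm3 was the only one of the 40 genes called between groups (0.607% of all genes were called in that comparison), with a log2 fold change of 2.84 (SE 0.571, limma adjusted p = 0.0464) between virgin and bonded animals on the log2(FPKM + 1) scale, where its listed values ran from 1.55 FPKM in B5 to 92.9 FPKM in V6.

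Of the genes that drive mitotic entry, the cyclin Ccnb2 was the most abundant (mean 7.75 FPKM). It had 6.91 to 9.42 FPKM (median 7.42 FPKM) in bonded, 5.37 to 10.3 FPKM (median 6.30 FPKM) in bond-disrupted and 6.63 to 8.87 FPKM (median 8.73 FPKM) in virgin animals. The kinase Melk was the scarcest at a mean of 0.507 FPKM, and ranged from 0.130 FPKM in BD2, on 16 reads, to 0.896 FPKM in BD3. Cdk1, the kinase that drives entry into mitosis, had 3.30 to 6.22 FPKM in bonded, 1.42 to 6.35 FPKM in bond-disrupted and 1.94 to 4.47 FPKM in virgin animals, with BD2 the lowest and BD6 the highest of all.

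Kinetochore and checkpoint genes were uniformly scarce. The most abundant was Ndc80, the outer kinetochore protein that grips microtubules, with 0.505 to 1.34 FPKM over the 17 animals. The scarcest was the checkpoint kinase Ttk, with 0.137 to 0.563 FPKM, lowest in V2 and highest in BD3. Bub1 and Bub1b, the checkpoint kinase and its relative, both had their minimum in BD2, at 0.135 and 0.183 FPKM.

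Among the passenger, motor and cytokinesis genes, the passenger kinase Aurkb was the most abundant (mean 7.43 FPKM), with 5.06 to 11.6 FPKM in bonded, 3.93 to 10.2 FPKM in bond-disrupted and 6.46 to 11.2 FPKM in virgin animals. The spindle motor Kif11 was the scarcest, with a mean of 0.769 FPKM. It had 0.874, 0.646, 1.05, 0.979, 0.526 and 0.626 FPKM in B1 to B6, 0.492, 0.291, 1.37, 0.737, 0.576 and 1.04 FPKM in BD1 to BD6, and 0.772, 0.920, 0.917, 0.707 and 0.552 FPKM in V2 to V6. The animals took nearly the same order as for Mki67, from BD2 at the bottom to BD3 at the top. Of the anaphase genes, Cdc20, the activator of the anaphase promoting complex, ranged from 3.07 to 5.62 FPKM, and Ube2c, its ubiquitin-conjugating enzyme, from 0.721 FPKM in BD2 to 4.58 FPKM in BD3.

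**Figure D2:**
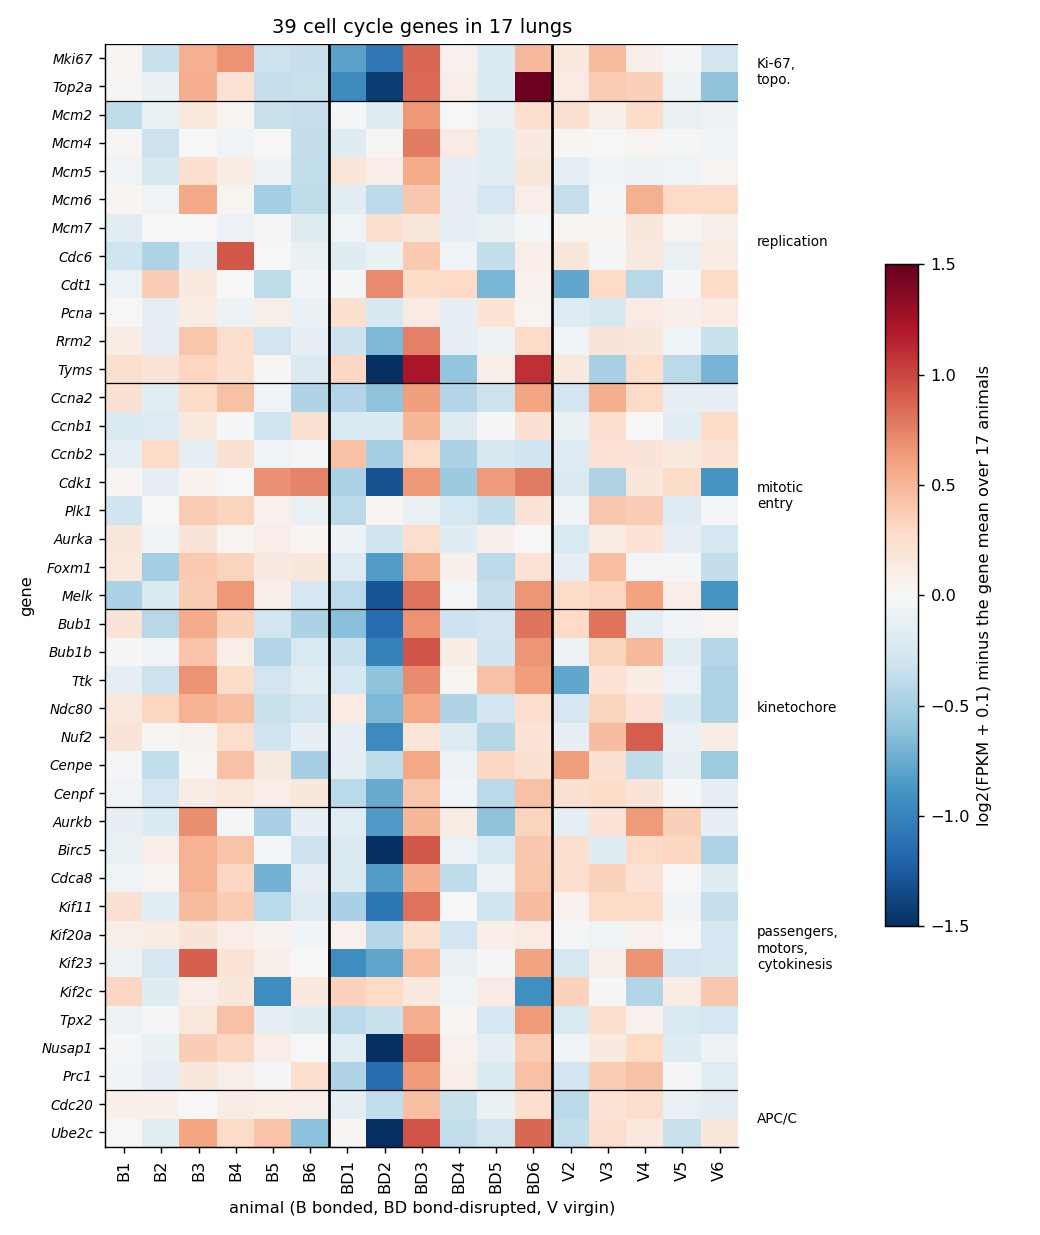
Heat map of 39 cell cycle genes (rows, by role) in 17 lungs (columns, by group), where the color gives log2(FPKM + 0.1) minus the gene's mean over all animals, blue below the mean and red above it. The column of BD2 is blue and those of BD3 and BD6 are red over most rows, while the rows of Mcm7 and Pcna stay pale.

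Of the bond-disrupted animals named above, BD2 and BD3 set the extremes of most of these genes. BD2 was the lowest of the 17 animals for 23 of the 39 genes, and BD3 was the highest for 22 and BD6 for 4. Over the 16792 genes, BD2 was the lowest animal in 11.5%, BD3 the highest in 5.17% and BD6 the highest in 11.2%. The 4 genes highest in BD6 were thus near its share over all genes. On the log2(FPKM + 0.1) scale, the 39 genes lay on average 0.66 below their means in BD2, 0.56 above them in BD3 and 0.35 above them in BD6. The other bond-disrupted animals lay between -0.21 and -0.13, the bonded animals between -0.13 and 0.30 and the virgin animals between -0.17 and 0.20, so that the bond-disrupted group enclosed both of the others. The median SD of the 39 genes was 0.30 within bonded, 0.48 within bond-disrupted and 0.30 within virgin animals, beside 0.23, 0.28 and 0.24 over all genes; this difference in spread was not tested.

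**Figure D3:**
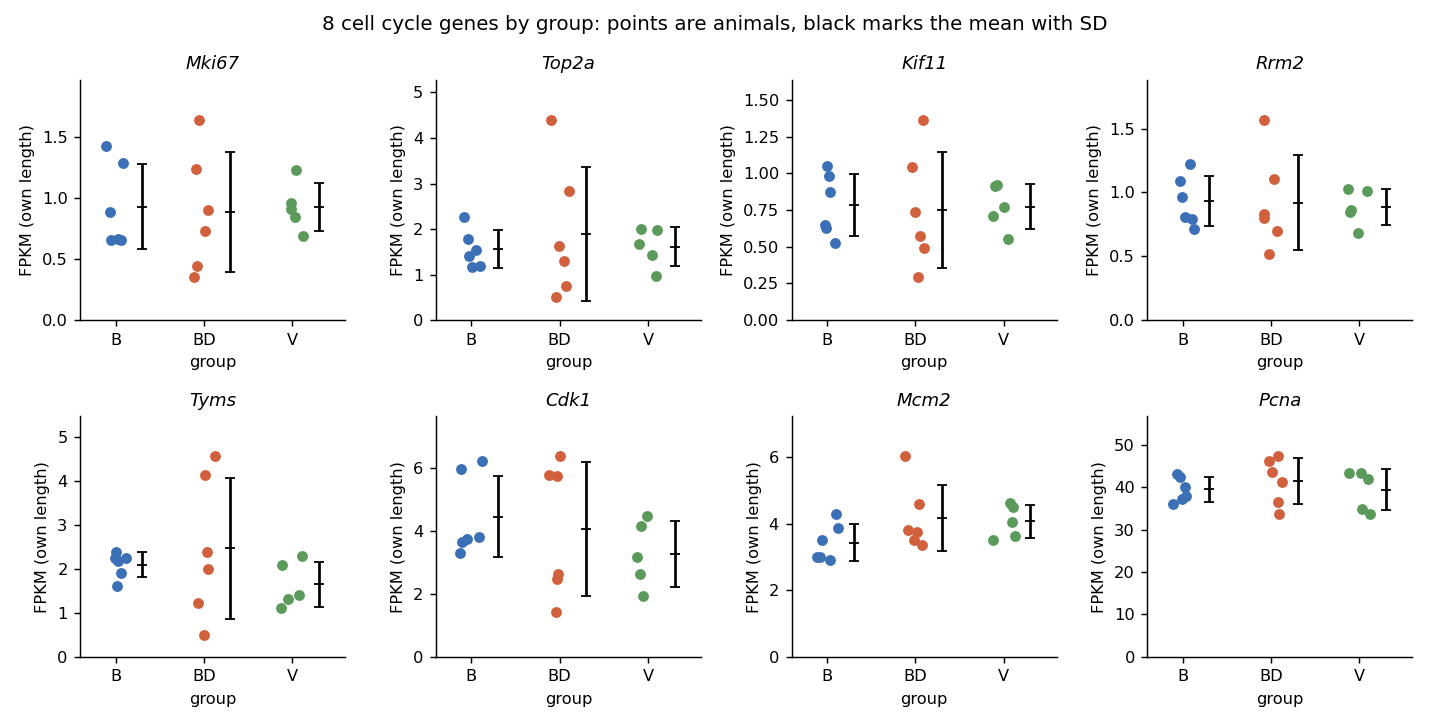
FPKM with own length (y axis) of 8 cell cycle genes in bonded (B), bond-disrupted (BD) and virgin (V) animals (x axis); each point is an animal and the black mark is the group mean with its SD. The groups overlap for every gene shown, and the bond-disrupted group has the largest SD for each of them.

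None of these genes was called for bonding history. The 3 groups were compared with limma on log2(FPKM + 1) over the 14404 recovered genes that reached 1 FPKM in some animal, 34 of the 40 among them, and a gene was called at an adjusted p under 0.1 and a change of at least 2-fold. Of the 34 genes, 0 were called between bond-disrupted and bonded animals (0% of all genes were), 0 between virgin and bonded animals (0% of all genes) and 0 between virgin and bond-disrupted animals (0% of all genes), and voom on the recovered reads also called 0 of 39 in each. At an unadjusted p under 0.05, limma found 0 of the 34 genes in each comparison, against 5.98%, 3.57% and 4.14% of all genes in the same order, and voom found 0 of 39. The lowest unadjusted p among the 34 was 0.0839 (Mcm2), 0.0593 (Mcm7) and 0.0535 (Nuf2) in turn. Without BD2 and BD3, limma still called 0 in each.

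Between bond-disrupted and bonded animals, 13 of the 34 genes had a log2 fold change above 0 and 21 below, and the median was -0.06 beside 0.01 over all genes. The 2 furthest from 0 were helicase subunits, Mcm2 with a log2 fold change of 0.21 (SE 0.115, limma adjusted p = 0.855) and Mcm4 with 0.20 (SE 0.112, adjusted p = 0.855). Mcm2 had 2.91 to 4.28 FPKM in bonded and 3.35 to 6.02 FPKM in bond-disrupted animals, which overlapped. Without BD3, the differences were 0.12 for Mcm2 and 0.0870 for Mcm4. Mki67 differed by -0.05 (SE 0.153) and Top2a by 0.05 (SE 0.247).

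Between virgin and bonded animals, 17 genes lay above 0 and 17 below, with a median of 0.0040 beside 0.0063 over all genes. Cdk1 was the furthest from 0 with a log2 fold change of -0.36 (SE 0.274, limma adjusted p = 1), followed by Tyms with -0.24 (SE 0.262, adjusted p = 1), and Cdk1 was -0.23 without V6. Mki67 differed by 0.01 (SE 0.160). Between virgin and bond-disrupted animals, which were both without a mate at sampling, 18 genes lay above 0 and 16 below, with a median of 0.01 beside 0.0047 over all genes. Tyms was the furthest with -0.27 (SE 0.262, limma adjusted p = 0.945) and Aurkb the next with 0.26 (SE 0.219, adjusted p = 0.945). Tyms was -0.11 without BD3, -0.13 without BD6 and -0.49 without BD2, and Aurkb was 0.13 without BD2, 0.17 without BD5 and 0.16 without V4. Over the 3 comparisons the log2 fold changes of the 34 genes stayed between -0.36 and 0.26, on a scale that understates changes of scarce genes. With a pseudocount of 0.1 they lay between -0.45 and 0.47, and by voom those of 39 genes lay between -0.47 and 0.56.

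**Figure D4:**
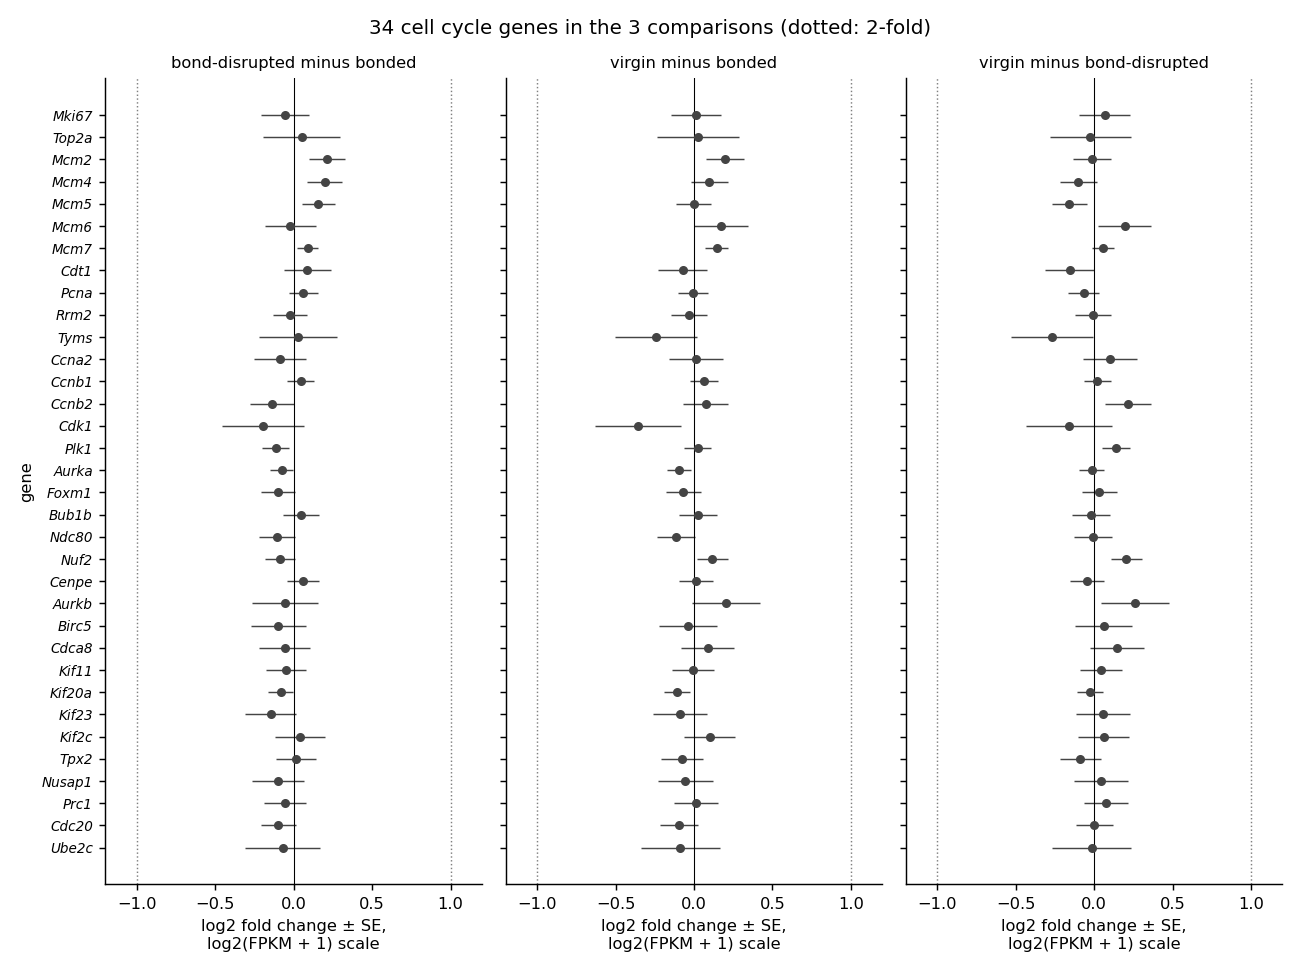
Log2 fold change with its SE on the log2(FPKM + 1) scale (x axis) of the 34 tested cell cycle genes (y axis) in each of the 3 comparisons, with dotted lines at a 2-fold change. The points lie between -0.36 and 0.26 and none comes near the dotted lines.

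Further genes of the cell cycle were not called either. In a list of 88 further proliferation genes, 57 were tested and 0 were called in each comparison (0% of all genes). At an unadjusted p under 0.05 limma found 2, 2 and 1, against 5.98%, 3.57% and 4.14% of all genes. The DNA repair gene Brca1 was found in both comparisons of virgin animals. In a list of 29 genes of the G1 cyclins, their kinases and the brakes of the cycle, 26 were tested and 0 were called (0% of all genes). At that level 0, 1 and 1 were found. The counts of both lists were near or below the shares of all genes. Voom called 0 of both lists.

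Within groups, however, many of the cell cycle genes varied together between animals. For each of the 16791 other genes that averaged 0.1 FPKM or more, limma fitted the slope of log2(FPKM + 0.1) on that of Mki67 with the group as a covariate, so that only differences between animals of 1 group counted. A positive slope at an adjusted p under 0.1 was found for 24 of the 38 cell cycle genes tested, against 5.78% of all genes, and a negative slope for 0 of them, against 3.99% of all genes. With the family number that brothers and cousins share as a replicate block, 2 of the 38 passed (0.0774% of all genes), and without the bond-disrupted group 0 did (limma; 0.00597% of all genes). Their median slope was 0.52 (a gene that doubled with each doubling of Mki67 would have 1) and their median r with Mki67 was 0.72, beside -0.02 and -0.04 over all genes. At an unadjusted p under 0.05, 31 of the 38 had a positive slope (11.2% of all genes did), and 35 of the 38 slopes were above 0.

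Kif11 had the lowest p of all 16791 genes, with a slope of 0.85 (SE 0.0783, r = 0.95, limma adjusted p = 3.46e-04), and it had followed Mki67 in the values given above. Rrm2 came next with 0.62 (SE 0.0689, r = 0.94, adjusted p = 0.00168), followed by the checkpoint kinase Bub1 with 0.95 (SE 0.110, r = 0.92, adjusted p = 0.00168). Top2a had the steepest slope of the 38 genes, 1.18 (SE 0.156, adjusted p = 0.00264). The correlation of Mki67 with Top2a within groups was r = 0.90 (two-sided permutation test within groups, p = 6e-05, n = 17) and rho = 0.91 (p = 3e-05), over 100000 permutations. Without BD2 and BD1, the animals furthest from the median of Mki67 on the log2 scale, it was r = 0.78 (permutation p = 0.0021, n = 15). It was 0.83 (permutation p = 0.0016, n = 11) without the whole bond-disrupted group, and as deposited it was 0.21 (permutation p = 0.516).

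Among the roles with more than 1 gene tested, those of chromosome capture and cytokinesis passed most often. Top2a was the only gene tested of its role, and it passed. Over all genes, 5.78% had a positive slope past the threshold. All 7 kinetochore and checkpoint genes had such a slope (median r 0.82), as did 8 of the 10 passenger, motor and cytokinesis genes (median r 0.80, not Kif20a and Kif2c). Of the 10 replication genes tested, 4 did so (Rrm2, Mcm2, Tyms and Mcm4; median r 0.56), of the 8 mitotic entry genes 3 (Melk, Ccna2 and Foxm1; median r 0.61), and of the 2 anaphase genes Ube2c. With the family replicate block, 1 kinetochore gene, 1 of the passenger and motor genes and 0 of the other roles passed (limma, 0.0774% of all genes). Without the bond-disrupted group 0 of any role did (limma, 0.00597% of all genes). Whether the roles differ was not tested.

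The 14 genes that did not pass included some of the most abundant ones. Cdt1 (slope -0.04, SE 0.195, limma adjusted p = 0.922) and Pcna (slope 0.02, SE 0.0855, adjusted p = 0.910) had the highest p of the 38, and Mcm7 (-0.02) and the kinesin Kif2c (-0.14) also had slopes below 0. In a split by level chosen after the values were seen, 2 of the 8 genes that averaged 4 FPKM or more passed (Aurkb and Mcm4), as did 11 of the 17 between 1 and 4 FPKM and 11 of the 13 below 1 FPKM. Over all genes of any level 5.78% passed, and all genes were not split by level. Several of the 14 still leaned upward, with r from 0.55 to 0.61 for Ccnb1, Aurka, Kif20a, Cdc20, Mcm6 and Cdc6.

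**Figure D5:**
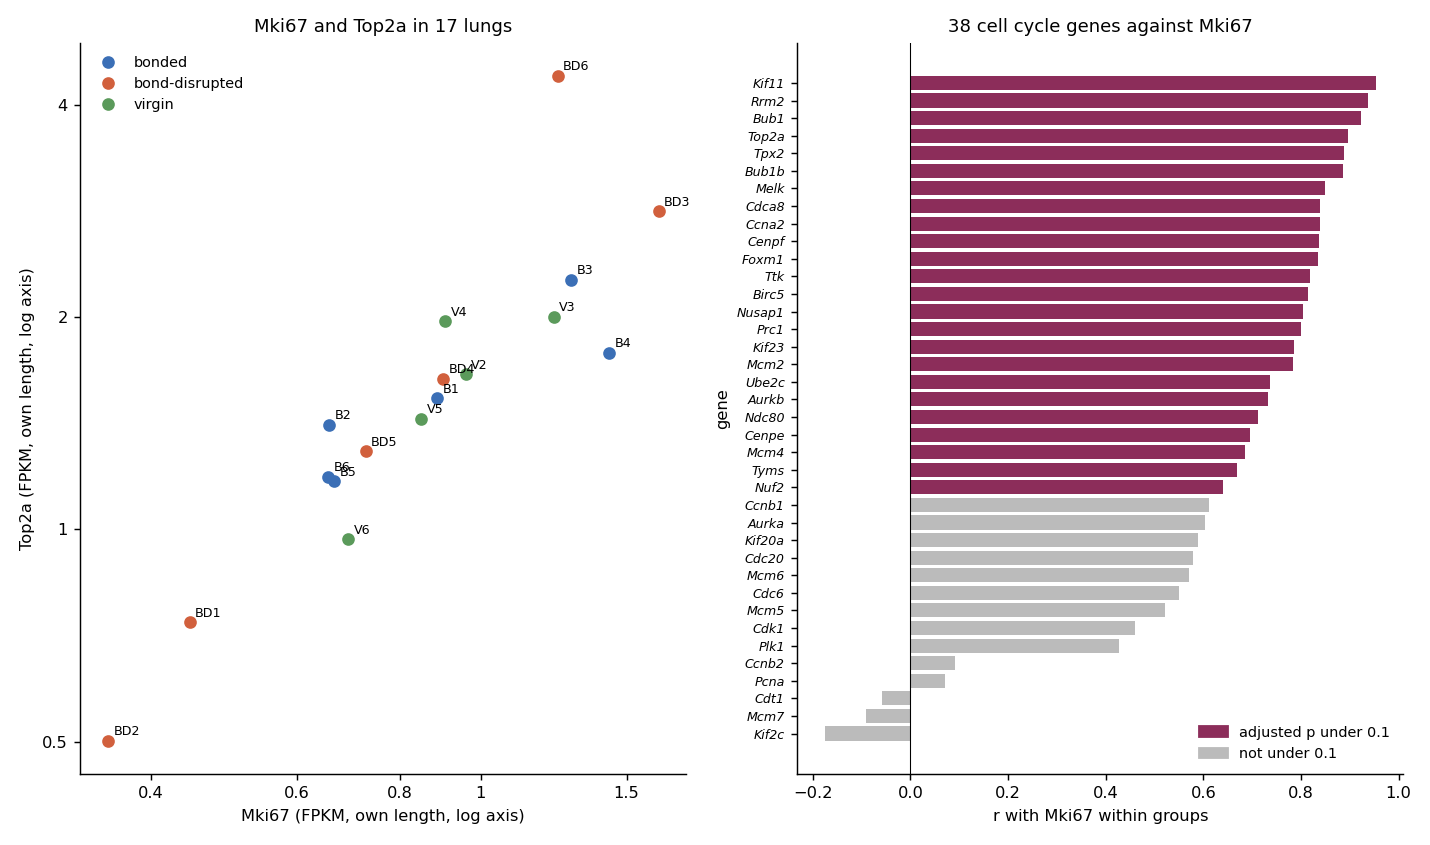
Left, Mki67 (x axis) against Top2a (y axis) in FPKM with own length, both on log axes, with 1 point per animal colored by group; right, r with Mki67 within groups (x axis) for 38 cell cycle genes (y axis), with those at an adjusted p under 0.1 dark. The animals run from BD2 to BD3 and BD6 along 1 diagonal (r = 0.90), and 35 of the 38 genes lie right of 0 on the right.

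Taken pair by pair, the 741 pairs among the 39 genes had a median r of 0.58 within groups, with 88.3% above 0 and 59.4% above 0.5. Over all pairs of the 16792 genes, 49.9% were above 0 and 6.42% above 0.5. The closest pairs were Rrm2, which acts in DNA synthesis, with the spindle motor Kif11 (r = 0.98), and Bub1b with Kif11 (r = 0.97). The most opposed was Cdt1 with Cdk1 (r = -0.59). The median r was 0.42 without BD2 and BD3, 0.39 without the bond-disrupted group and 0.05 as deposited. All pairs share the same 17 libraries, so these are descriptions.

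How many genes passed depended on which values, animals and terms were in the fit. As deposited, 0 of 39 passed (limma; 0% of all genes), with 4 at a positive slope and an unadjusted p under 0.05 (3.17% of all genes). After an additive removal of the row-minus-column effect, which used no recovered lengths, 0 of 39 passed (0% of all genes), with 14 at that level (4.11% of all genes). This removal took up 69.1% of the variance within genes as deposited, and how much length error it left was not tested. Without BD2 and BD3, 15 of 38 passed (4.33% of all genes did), 14 of them among the 24, and the median slope was 0.410. Without the bond-disrupted group, in 11 animals, where 0 passed, 17 had a positive slope at an unadjusted p under 0.05 (6.62% of all genes). There 34 slopes were above 0, with a median of 0.405. With the family replicate block, the 2 genes that passed were Bub1 and Kif11, and 22 had a positive slope at an unadjusted p under 0.05 (8.27% of all genes). The median slope over the 38 genes was then 0.44, against 0.52 without the block, and 33 slopes were above 0. On the recovered reads, voom passed 23 of 38 (6.75% of all genes), all among the 24.

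Genes outside the 40 that followed Mki67 most closely included immune genes. The 5 with the lowest p were Lcp1 (an actin bundling protein of leukocytes; slope 0.56, r = 0.94), the kinesin Kif15 (0.85, r = 0.92), Wdfy4 (1.146, r = 0.90; a gene of antigen presenting cells), the TNF receptor Tnfrsf1b (0.63, r = 0.91) and the RNA sensor Tlr7 (1.03, r = 0.90). Of the list of further proliferation genes, 30 of 77 passed with a positive slope (5.78% of all genes) and 0 with a negative one (3.99%). The 5 with the lowest p were Kif15, the methylation maintenance factor Uhrf1 (slope 0.75), the cytokinesis regulator Racgap1 (0.71), the Fanconi gene Fancd2 (0.83) and the spindle protein Dlgap5 (0.69). Of the list of G1 cyclins, kinases and brakes, 1 of 26 passed upward, Rbl1 (slope 0.41, a pocket protein that is itself made in cycling cells), and 2 downward, the inhibitor of cyclin-dependent kinases Cdkn1b (-0.28) and the repressor E2f6 (-0.30). With the family replicate block, 2 of the 77 further proliferation genes passed and 31 had a positive slope at an unadjusted p under 0.05 (limma, 0.0774% and 8.27% of all genes). Without the bond-disrupted group 0 passed and 28 were at that level (limma, 0.00597% and 6.62% of all genes). Of the 26 G1 genes, 0 passed in either fit, with 2 and 1 at that level, near or below those shares of all genes.

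Markers of macrophages and T cells were among the genes with a positive slope on Mki67, and differences between the cell types were not tested. A positive slope on Mki67 at the same threshold (5.78% of all genes) was found for 7 of 9 macrophage markers measured (among them Csf1r, 1.11, and Adgre1, 1.07), 3 of 5 T cell markers, 2 of 9 markers of B cells and plasma cells, 1 of 5 neutrophil markers and 1 of 5 thymocyte markers, and for 0 of 3 natural killer cell, 0 of 8 erythroid, 0 of 4 megakaryocyte and 0 of 6 germinal centre B cell markers. The median slope was 0.80 for the macrophage, 0.86 for the T cell, 0.76 for the B cell, 0.79 for the neutrophil and 0.91 for the erythroid markers. With the family replicate block, 1 macrophage marker and 0 markers of T, B and plasma cells, neutrophils and erythroid cells passed (limma; 0.0774% of all genes), and 0 of these passed without the bond-disrupted group (0.00597% of all genes). Of the 9 macrophage markers, 7 had a positive slope at an unadjusted p under 0.05 in both of these fits (8.27% and 6.62% of all genes), while of the 5 T cell markers 1 and 3 did, of the 9 B and plasma cell markers 6 and 1, and of the 5 neutrophil markers 5 and 1. The summed macrophage markers had 133 to 367 FPKM in bonded, 159 to 436 FPKM in bond-disrupted and 136 to 284 FPKM in virgin animals. They were highest in BD3 (436 FPKM), a rank that rested on Fabp4. That gene gave 162 FPKM of the sum in BD3 and 48.8 FPKM of the 356 FPKM in BD6. The summed T cell markers had 21.7 to 62.3 FPKM in bonded, 14.5 to 47.1 FPKM in bond-disrupted and 28.0 to 66.5 FPKM in virgin animals. Those of B cells had 36.1 to 128, 26.7 to 170 and 65.9 to 149 FPKM in the same order. BD2 was the lowest animal for both, and for the summed natural killer, neutrophil and erythroid markers (2.19, 3.86 and 3.25 FPKM). It was the highest for the endothelial sum (1057 FPKM). Every measured marker of macrophages, T cells and B cells reached 0.1 FPKM in some animal. Of the thymocyte markers, Rag1, Rag2 and Arpp21 did not. With the macrophage, T cell and B cell sums as covariates, 0 of the 38 cell cycle genes passed (limma, 0% of all genes). Of the 38, 14 had a positive slope at an unadjusted p under 0.05 (4.77% of all genes), and 35 slopes were above 0. The median slope was then 0.40, against 0.52 without the sums. Kif11 had a slope of 0.74 (SE 0.138) and Top2a of 1.05 (SE 0.306), while, of genes chosen after their values were seen, Ndc80 had 0.0587 (SE 0.213), Mcm2 0.12 (SE 0.139), Melk 0.38 (SE 0.225) and Tyms 0.41 (SE 0.480).

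Markers of the lung's own cells and of heart muscle passed in both directions. With positive slopes (5.78% of all genes), 1 of 5 markers of type 2 alveolar cells (Napsa) and 1 of 7 of fibroblasts passed, and 0 of 5 of type 1 alveolar cells, 0 of 6 of endothelial cells and 0 of 2 of mesothelium. With negative slopes (3.99% of all genes), 2 of 6 heart muscle markers, 1 of 5 of smooth muscle, 1 of 6 of ciliated cells, 1 of 2 of airway secretory cells and 1 of 7 of fibroblasts passed. With the family replicate block 0 of these markers passed in either direction (limma; 0.0774% of all genes upward and 0.0476% downward), and without the bond-disrupted group 0 did (0.00597% and 0% of all genes). At an unadjusted p under 0.05, 5 of 6 ciliated cell and 4 of 5 smooth muscle markers had a negative slope under the block (9.05% of all genes), and 0 of 6 and 3 of 5 without the bond-disrupted group (4.8% of all genes). The lung label was borne out by the surfactant gene Sftpc, at a mean of 19872 FPKM. Heart muscle markers, which varied from 52.7 to 545 FPKM in sum, were in every library, and their part in the covariation was not tested.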

How the data were processed

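Lung RNA of 17 male *P. californicus* was sequenced from directional libraries, 1 per animal. The submitters' processing notes name Trim Galore 0.4.5, STAR 2.7.2, SAMtools 1.5 and featureCounts of Subread 1.5.3; the genome build is not given in the sources used here. The authors deposited FPKM, 1 column per animal (0 columns were left over), and no counts. The deposited FPKM had been divided by lengths of other genes, as described in the report. Library sizes were recovered from small RNA genes with RefSeq lengths (assembly ASM782708v3) and each length as the one that made most values whole reads. Lengths were settled for 26138 of 27787 entries and all values for 24238 genes. Recovered reads summed to between 0.964 (B3) and 1.03 (BD1) of the recovered library size. A part cannot exceed the whole, so values above 1 (V6 had 1.02) mean that some reads or library sizes were off. Of 346027 values, 98.6% came within 0.03 of a whole read. Low values (5 to 50 reads) were whole in 99.0% with the other gene's length and in 5.91% with the gene's own. Lengths were chosen to give whole reads, so these shares are no independent check. Of 1554 small RNA lengths checked, 1530 equalled those of RefSeq, though library sizes had been recovered from such genes. Nusap1, counted among the 39 recovered members, came to 127.66 reads in B5, which is not a whole number. Reads were then divided by the gene's own length, which assumes that the shift to other genes' lengths is the only error. Even reads leave a length open by a whole factor, which was settled against neighbouring rows. Reads were even in all 17 animals for 24 of the 39 recovered members, Mki67 and Top2a among them, so their levels and the order of levels between genes could still be off by a whole factor where that failed.

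Tests used limma 3.58.1 in R 4.3.3 (two-sided, Benjamini-Hochberg over all genes tested) and Python 3.11.15 with numpy 2.4.6 and scipy 1.17.1. The limma fits were also run on simulated data, where group calls used a threshold below 2-fold, and no outcome of that run is given here. Voom used genes that averaged 10 reads or more. The study's methods name limma on FPKM with an adjusted p under 0.1 and 2-fold change. Groups and replicate numbers come from the labels. The paper's figure legend gives same numbers to relatives, which is where the pairing comes from; deviations of the 16 same-number pairs correlated at 0.05 on average (-0.01 in the other 80), at 0.18 (0.06 to 0.32, above 0 in 6 of 6) between bonded and bond-disrupted brothers and at -0.03 (-0.21 to 0.12) in the 10 pairs with a virgin animal. No 2 libraries were identical. The members and lists were chosen with earlier results of these data known. Genes were named by rule: in each role the most and least abundant, in each comparison the 2 largest changes, the 2 lowest and 2 highest slope p, and the 5 closest non-members and list genes. The alternatives without the bond-disrupted group, without BD2 and BD3 and with marker sums were chosen after seeing the data. Sequences were not used here.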

Additional observations from a re-analysis of the deposited data

Results flagged for a closer look

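Dixon's test was applied to each of the 39 genes in each of the 3 groups, 117 groups in all, and picked out 7; chance picks out about 1 in 20. In bonded animals, B3 stood above the rest for the passenger kinase Aurkb (11.6 FPKM, next 7.05 FPKM) and for the cytokinesis motor Kif23 (2.43 FPKM, next 1.47 FPKM), and below them for Cdc20 (4.12 FPKM, next 4.33 FPKM, within a group whose values lay close together). B4 stood above for the helicase loader Cdc6 (0.580 FPKM, next 0.253 FPKM), and B2 below for the transcription factor Foxm1 (0.553 FPKM, next 0.918 FPKM). In bond-disrupted animals BD3 stood above for Mcm4 (7.52 FPKM, next 4.81 FPKM), and in virgin animals V2 stood below for Ccnb2 (6.63 FPKM, next 8.40 FPKM).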

How the results depend on the processing

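The calls of cell cycle genes between groups stayed at 0 under every alternative run except the values as deposited, which gave 1 call (Mcm3, virgin against bonded). Of the 24 genes passing on Mki67, 0 passed as deposited and 0 after an additive removal of the row-minus-column effect, 2 passed with the family replicate block, 14 without BD2 and BD3 (15 genes in all, with Plk1), and 0 without the bond-disrupted group or with the marker sums; the cause was not tested. The other alternatives (voom, pseudocounts, filters, no group term, depth, median-ratio scaling, Top2a or Mcm2 as reference, an adjusted p under 0.05) gave 18 to 25, and leaving out 1 animal gave 18 (without BD2 or BD3) to 26 (without V2). Leaving out 1 animal kept 16 of the 24 genes in all fits. Without BD2, Aurkb, Cenpe, Ndc80, Nuf2, Tyms and Ube2c were lost; without BD3, Cenpe, Mcm2, Mcm4, Ndc80, Nuf2 and Tyms; without BD6, Nuf2 and Tyms; without BD1, Mcm4. Without B2, B3 or B6 Mcm4 was lost, and Nuf2 passed in 5 of 17 fits. The correlation of Mki67 with Top2a fell to 0.208 as deposited, ranged from 0.855 to 0.936 when 1 animal was left out and was 0.876 with the replicate block, which changed no call of a cell cycle gene between groups.

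Some log2 fold changes changed sign, all with a limma adjusted p of at least 0.93. As deposited, Mcm4 was -0.29 (bond-disrupted minus bonded), Tyms 0.22 (virgin minus bonded) and Top2a 0.0503 (virgin minus bond-disrupted). Top2a between bond-disrupted and bonded was -0.10 by voom and -0.0269 with a pseudocount of 0.1. Between virgin and bonded, Top2a was -0.17 and Tyms 0.0120 after the additive removal, Top2a -0.0083 by voom, and with the replicate block Mki67 was -0.0252 and Top2a -0.0330. Between virgin and bond-disrupted, Top2a was 0.0869 by voom and 0.0632 with a pseudocount of 0.1. Leaving out 1 animal gave, in the 3 comparisons in turn, -0.16 to 0.0323, -0.0430 to 0.0806 and -0.0218 to 0.17 for Mki67, and -0.16 to 0.21, -0.0289 to 0.12 and -0.19 to 0.18 for Top2a. Counting error limits the values of the scarcest members, which had 16 reads at the lowest (Melk and Birc5 in BD2).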
